A study of Mus musculus with 8 samples.

Results

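Matrix metalloproteinases (MMPs) are zinc-dependent enzymes that cut collagen, elastin and other parts of the extracellular matrix, and tissue inhibitors of metalloproteinases (TIMPs) block them by occupying the active site. The RNA of 10 such genes was followed in mouse macrophages after knockdown of the macrophage lncRNA MAARS. They were 6 MMP genes (Mmp8, Mmp9, Mmp12, Mmp13, Mmp14 and Mmp19), 3 TIMP genes (Timp1, Timp2 and Timp3) and Adam8, which encodes a membrane metalloproteinase of the related ADAM family. The genes were chosen by symbol, through their Ensembl identifiers in GENCODE M21, as 10 of the 49315 genes counted. All 10 passed the filter on low counts that left 13051 genes for testing, and the lowest count of any of them in any library was 122.

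Bone marrow-derived macrophages (BMDMs) were grown from C57BL/6 mice in IMDM holding M-CSF, the macrophage growth factor, at 10 ng/ml. Mouse age is not given in the sources used here. By lipofection, 4 samples received a gapmeR against MAARS (replicates 9, 11, 13 and 15) and 4 a negative control gapmeR (replicates 2, 5, 6 and 7), which the sample labels give at 25 nM. A gapmeR is a short antisense oligonucleotide whose DNA centre directs RNase H to the RNA it pairs with. Both groups thus shared strain, growth factor and transfection, no untransfected cells were analysed here, and the labels do not say whether replicates came from separate animals, so p-values measure the spread between these libraries. Loss of MAARS and any other effect of its gapmeR cannot be told apart in this design, and "after MAARS knockdown" below names the gapmeR group.

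Ribodepleted total RNA was read as 100 nt pairs. Control libraries held 19287279 to 20567123 counts on genes and MAARS gapmeR libraries 20839671 to 24541205, so that every MAARS gapmeR library was deeper than every control library. MAARS itself (Gm14461, ENSMUSG00000054510, chr2:78237547-78302230 on the plus strand) held 238, 296, 240 and 249 counts in the controls and 163, 161, 159 and 135 after its gapmeR. Its log2 fold change was -0.95 (SE 0.112, edgeR adjusted p = 5.8e-05), with no overlap between the groups. All 9 macrophage markers examined passed the filter, and their summed level was 14304 to 17540 CPM (counts scaled to a common, TMM-adjusted library size) in controls and 17310 to 20531 CPM after MAARS knockdown. Lyz2, the lysozyme gene, alone held 8048 to 11042 CPM in controls and 11813 to 14677 CPM after knockdown, and the other 8 markers summed to 5851 to 6805 and 5496 to 5853 CPM. Of the 9 markers 5 were higher and 3 lower, where 45.4% of all genes tested were called, with 21.3% higher and 24.0% lower. Among the lower was Fcgr1, the high-affinity IgG receptor, at a log2 fold change of -2.09 (edgeR adjusted p = 7.12e-06). Adgre1, which encodes F4/80, gave 0.04 (edgeR adjusted p = 0.553).

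In macrophages, MMPs are secreted as inactive proenzymes or held at the membrane, and their activity depends on proenzyme cleavage and on the TIMPs present. Mmp8 and Mmp13 encode the main rodent collagenases, which open the triple helix of fibrillar collagen, Mmp12 the macrophage elastase and Mmp9 a gelatinase. Mmp14 encodes a membrane-bound collagenase that also activates the proenzyme of MMP2, and Mmp19 a secreted MMP with basement membrane substrates. These enzymes are studied in atherosclerosis because collagen and elastin hold the cap of a plaque together. The data here are RNA levels and carry no measure of protein or of enzyme activity.

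Mmp13, Mmp12 and Mmp8 lie in 1 gene cluster on chromosome 9 and did not move together, and Adam8 was the most abundant of the 10 genes. The 250 bases before their RefSeq start sites are shown for that reason, 5′ to 3′ on each gene's own strand, from build GRCm38.p6. The windows are chr9:7272264-7272513 for Mmp13, chr9:7347124-7347373 for the second of the 2 RefSeq starts of Mmp12 and chr9:7558179-7558428 for Mmp8, all on the plus strand, and chr7:139992563-139992812 for Adam8 on the minus strand. Capitals mark matches to TGANTCA, the letters bound by AP-1, or to TATAAA, the TATA box. Of the 2 Mmp12 windows, the one with more of these matches was chosen for display, so its match follows from that choice.
Mmp13: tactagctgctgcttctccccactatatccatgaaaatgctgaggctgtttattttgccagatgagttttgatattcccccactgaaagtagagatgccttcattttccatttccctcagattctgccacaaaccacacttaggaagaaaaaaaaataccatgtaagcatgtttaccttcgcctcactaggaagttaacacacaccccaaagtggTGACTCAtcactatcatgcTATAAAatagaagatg
Mmp12: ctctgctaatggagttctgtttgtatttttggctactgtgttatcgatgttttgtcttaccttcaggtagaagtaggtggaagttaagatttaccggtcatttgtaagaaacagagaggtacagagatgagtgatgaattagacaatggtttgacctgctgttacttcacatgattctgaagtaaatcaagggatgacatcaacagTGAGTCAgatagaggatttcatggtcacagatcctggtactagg
Mmp8: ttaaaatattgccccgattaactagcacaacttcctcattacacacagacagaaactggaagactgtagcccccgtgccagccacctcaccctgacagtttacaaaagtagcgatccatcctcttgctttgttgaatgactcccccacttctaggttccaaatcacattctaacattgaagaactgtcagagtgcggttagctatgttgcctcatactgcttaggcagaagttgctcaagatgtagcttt
Adam8: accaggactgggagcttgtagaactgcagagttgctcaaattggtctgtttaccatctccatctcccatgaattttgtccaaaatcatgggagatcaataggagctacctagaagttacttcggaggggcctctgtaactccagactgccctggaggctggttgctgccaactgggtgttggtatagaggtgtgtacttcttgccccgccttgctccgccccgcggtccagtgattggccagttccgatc

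Mmp13 held TGACTCA, with its first base 35 bases before the start, and TATAAA, with its first base 16 bases before. The second Mmp12 window held TGAGTCA 44 bases before the start, and the window of its first start held no match to either motif. Mmp8 and Adam8 held neither. Windows were found for 8 of the 10 genes, 9 windows in all, and not for Mmp9 and Mmp19. Over the 9, TGANTCA occurred in these windows of Mmp13 and Mmp12 alone and TATAAA in that of Mmp13 alone, against 6.75% and 12.4% of 32851 mouse promoter windows of this length. AGGAAG, the letters bound by Ets factors, occurred in those of Mmp13, Mmp8, Timp1, Timp3 and Mmp14 and in the first of Mmp12, against 29.5% of all windows. TTCNNNGAA, the letters bound by STAT factors, occurred in none of the 9, against 7.02%. Both strands were searched for every motif, the motifs did not overlap in these windows, and a match is a description of letters and not of binding.

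Across the 10 genes, 3 were higher after MAARS knockdown (Mmp8, Mmp12 and Timp2), 2 were lower (Mmp13 and Adam8) and 5 did not pass an adjusted p of 0.05 in edgeR (Mmp9, Mmp14, Mmp19, Timp1 and Timp3). Of all genes tested, 45.4% passed that threshold (21.3% higher and 24.0% lower), so that the share called among the 10 genes was close to the background. Scaling by upper quartiles made 60.4% of all calls higher, where TMM scaling gave 47.0%, and the median log2 fold change of all genes rose by 0.06. The CPM values of the groups did not overlap for Mmp8, Mmp13 and Adam8, 3 of the 10 genes, against 42.1% of all genes tested. The median log2 fold change was 0.12 over the 10 genes and 0.01 over all genes. In bulk RNA, fewer cells of a type and less RNA per cell cannot be told apart.

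**Figure D1:**
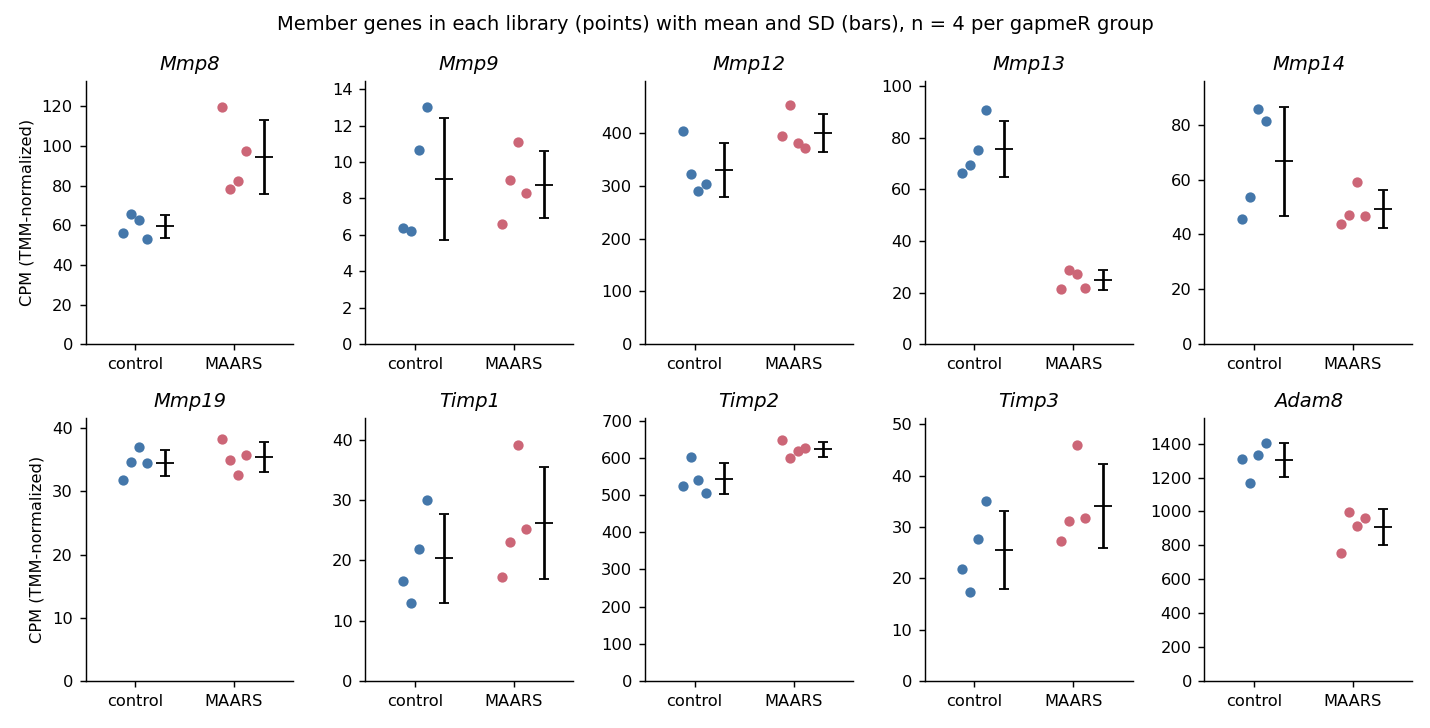
Level of each of the 10 genes in each library (vertical axes, TMM-normalized CPM from 0), with points for libraries in replicate order and bars for mean and SD of 4 libraries per group. For Mmp8, Mmp13 and Adam8 every point of a group lies on its own side of the other group, and for the other 7 genes the groups overlap.

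Mmp13, collagenase-3, gave the largest change of the 10 genes. Its level in the control libraries (replicates 2, 5, 6 and 7) was 66.4, 69.3, 75.3 and 90.9 CPM, and in the MAARS gapmeR libraries (replicates 9, 11, 13 and 15) it was 21.4, 28.8, 27.3 and 21.8 CPM. The lowest control library stood well above the highest knockdown library. The mean fell from 75.5 ± 10.9 to 24.8 ± 3.78 CPM (SD, n = 4), and the log2 fold change was -1.60 (SE 0.118, 95% interval -1.86 to -1.34, edgeR adjusted p = 5.27e-06). Mmp13 RNA thus fell by 67.1%. Among the 13051 genes tested it ranked 51 by p and 191 by depth of fall. Mmp13 (ENSMUSG00000050578, chr9:7272514-7283331, plus strand) had no exonic overlap with another gene.

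Mmp8, the collagenase first known from neutrophils, changed in the opposite direction. The controls held 56.1, 65.8, 62.7 and 53.1 CPM and the MAARS gapmeR libraries 119.6, 78.3, 82.3 and 97.4 CPM. All knockdown libraries lay above all controls, with the widest spread in the knockdown group. The mean rose from 59.4 ± 5.85 to 94.4 ± 18.7 CPM (SD, n = 4), a log2 fold change of 0.67 (SE 0.122, 95% interval 0.40 to 0.93, edgeR adjusted p = 0.00106). Mmp8 (ENSMUSG00000005800) lies at chr9:7558456-7568485 on the plus strand, without exonic overlap. Since neutrophils also hold Mmp8 RNA, neutrophil markers were read beside it. The summed level of 10 such markers was 142, 102, 181 and 301 CPM in controls and 106, 129.9, 169 and 141 CPM after knockdown. Of the 10, 8 passed the filter and 0 were called by edgeR, with 0 at an unadjusted p under 0.05, and limma-voom gave 0 in both. DESeq2 called 0, with 1 at an unadjusted p under 0.05, and edgeR with no filter called Ngp, Ltf and Mpo lower. The defining surface marker Ly6g held 0 to 8 counts per library. Replicate 9 had the highest Mmp8 level and the lowest marker sum of its group. A fit with the marker sum as a covariate, added after the data were seen, gave 0.58 for Mmp8 (edgeR adjusted p = 0.00159). The part of neutrophils in the Mmp8 level was not tested.

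The ratio of the collagenases was read within each library, where depth cancels. For every 100 Mmp8 counts, the controls held 118, 105, 120 and 171 Mmp13 counts. After MAARS knockdown the libraries held 17.9, 36.7, 33.2 and 22.3. Mmp13 counts exceeded Mmp8 counts in 4 of 4 control libraries and in 0 of 4 knockdown libraries. These are counts per gene, not per length, and the ratio serves only to compare libraries. Per kilobase of merged exons, Mmp8 (27.1 CPM) stood above Mmp13 (25.9 CPM) in control replicate 5 and below it in the other controls.

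Mmp12, the macrophage elastase, had the highest level of the 6 MMP genes in every library. Its level was 403, 323, 291 and 303 CPM in controls and 394, 453, 381 and 372 CPM after MAARS knockdown. Control replicate 2 lay within the knockdown range and the other 3 controls below it. The mean went from 329.8 ± 50.6 to 399.8 ± 36.4 CPM (SD, n = 4), with a log2 fold change of 0.28 (SE 0.0981, 95% interval 0.06 to 0.49, edgeR adjusted p = 0.0376). The call was lost when any of control replicate 5, 6 or 7 or knockdown replicate 9 or 11 was left out, at log2 fold changes of 0.26, 0.22, 0.24, 0.28 and 0.21 (edgeR adjusted p = 0.0797, 0.107, 0.0951, 0.0617 and 0.111). Without control replicate 2 it was 0.39 (edgeR adjusted p = 0.00111), and with the neutrophil marker sum as a covariate 0.24 (edgeR adjusted p = 0.0713). Mmp12 (ENSMUSG00000049723, chr9:7344381-7369499, plus strand) shares 2.17% of its exonic bases with Mmp1b on the other strand, and Mmp1b held 0 counts in every library.

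Mmp14, the membrane-type collagenase, did not pass the threshold. The controls held 45.7, 53.6, 85.8 and 81.4 CPM and the MAARS gapmeR libraries 44.0, 47.1, 59.3 and 46.9 CPM. Control replicates 6 and 7 lay above all other libraries, and the rest overlapped. The means were 66.6 ± 19.97 and 49.3 ± 6.79 CPM (SD, n = 4), and the log2 fold change was -0.43 (SE 0.181, 95% interval -0.83 to -0.04, edgeR adjusted p = 0.07). Leaving out control replicate 2, control replicate 5 or knockdown replicate 13 brought it past the threshold, at -0.57, -0.53 and -0.54 (edgeR adjusted p = 0.00981, 0.0432 and 0.0463). Mmp14 (ENSMUSG00000000957) lies at chr14:54431612-54445364 on the plus strand.

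Mmp9, the gelatinase, had the lowest level of the 10 genes. Its level was 6.40, 6.22, 10.7 and 13.01 CPM in controls and 6.62, 9.03, 11.1 and 8.32 CPM after MAARS knockdown. The knockdown libraries lay inside the control range. The means were 9.07 ± 3.33 and 8.76 ± 1.84 CPM (SD, n = 4), and the log2 fold change of -0.05 (SE 0.234, edgeR adjusted p = 0.879) had a 95% interval from -0.56 to 0.46. Mmp9 (ENSMUSG00000017737) lies at chr2:164940780-164955850 on the plus strand. Among the controls, the order of the Mmp9 levels was that of the neutrophil marker sum, with replicate 5 lowest and replicate 7 highest. It was also that of the stromal marker sum given with Timp1 and Timp3, which Mmp9 followed in the knockdown group as well (replicates 9, 15, 11 and 13 from lowest to highest), where the neutrophil sum had replicates 11 and 15 the other way round. With the neutrophil sum as a covariate the log2 fold change was 0.25 (edgeR adjusted p = 0.124), and with the stromal sum it was -0.34 (edgeR adjusted p = 0.0441). Both fits were added after the data were seen, and the part of neutrophils or stromal cells in the Mmp9 level was not tested.

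Mmp19 did not pass the threshold. It held 31.8, 34.7, 37.0 and 34.5 CPM in controls and 38.3, 34.9, 32.5 and 35.8 CPM after MAARS knockdown. The groups overlapped throughout. The means were 34.5 ± 2.13 and 35.4 ± 2.37 CPM (SD, n = 4), with a log2 fold change of 0.04 (SE 0.0652, 95% interval -0.11 to 0.18, edgeR adjusted p = 0.669). Mmp19 (ENSMUSG00000025355, chr10:128790910-128800824, plus strand) shares 28.3% of its exonic bases with Gm47093 and Tmem198b on the other strand. The strand setting of the counting is not given in the sources used here, so reads of these genes may not be separable there.

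In the chromosome 9 cluster, 4 of the 10 MMP genes had enough counts to test. In order along the chromosome these were Mmp13, Mmp12, Mmp8 and Mmp27, with midpoints 5.41 to 304 kb from the start of Mmp13. Mmp27, which starts next to the end of Mmp8 (chr9:7571396-7581885), held 1266 to 1567 counts per library and a log2 fold change of -0.09 (95% interval -0.23 to 0.04, edgeR adjusted p = 0.233). Between Mmp12 and Mmp8 lie Mmp1b, Mmp3, Mmp1a and Mmp10. Mmp10 held 1 to 16 counts, Mmp3 0 to 2 and Mmp1a 0 to 1 per library. Mmp1b and the genes at the far end, Mmp20 and Mmp7, held 0 counts in every library.

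**Figure D2:**
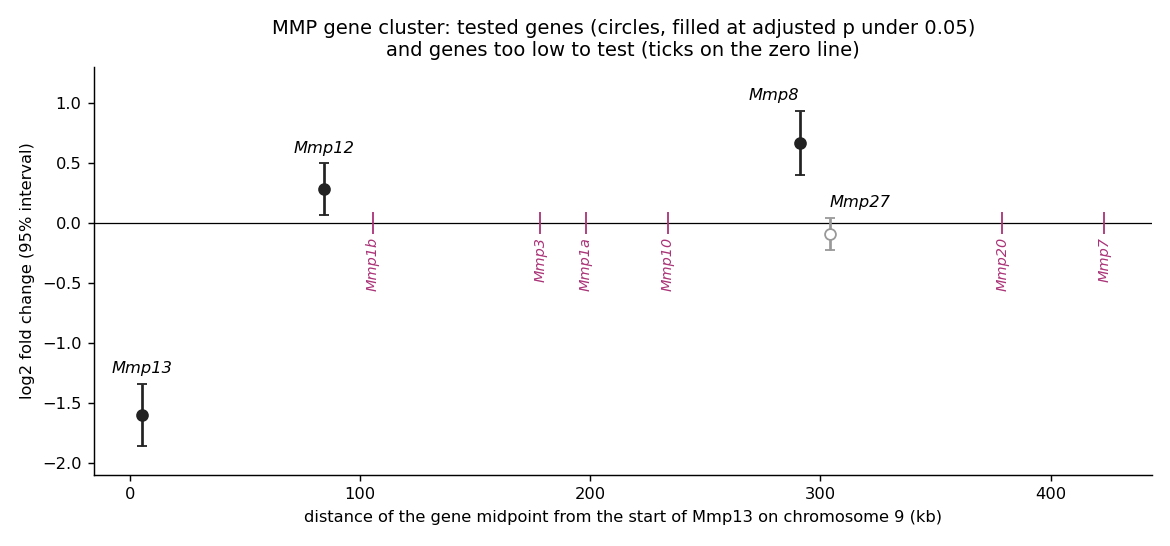
Log2 fold change of MAARS gapmeR over control gapmeR (vertical axis, circles with 95% intervals from edgeR, filled at an adjusted p under 0.05) against distance of the gene midpoint from the start of Mmp13 in kb (horizontal axis), with ticks for genes too low to test. Mmp13 lies at -1.60, Mmp12 at 0.28, Mmp8 at 0.67 and Mmp27 at -0.09.

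Of the inhibitors, Timp2 passed the test. TIMP2 inhibits soluble and membrane-type MMPs and also bridges the proenzyme of MMP2 to MMP14. Its level was 525, 603, 540.2 and 506 CPM in controls and 648, 598, 618 and 627 CPM after MAARS knockdown. Control replicate 5 lay between knockdown replicates 11 and 13, and the other controls lay below the knockdown libraries. The mean went from 543 ± 41.9 to 623 ± 20.7 CPM (SD, n = 4), a log2 fold change of 0.20 (SE 0.0579, 95% interval 0.07 to 0.32, edgeR adjusted p = 0.0167), or a rise of 14.6%. It stayed past the threshold with each library left out in turn, at 0.16 to 0.24 (edgeR adjusted p = 0.00262 to 0.0487). Timp2 (ENSMUSG00000017466) lies at chr11:118301069-118355740 on the minus strand.

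Timp1 and Timp3 overlapped between the groups. Timp1 encodes a soluble inhibitor with a strong affinity for MMP9, and Timp3 an inhibitor that is bound to the matrix and also blocks ADAM10 and ADAM17. Timp1 held 16.5, 12.9, 21.96 and 30.0 CPM in controls and 17.3, 23.0, 39.1 and 25.3 CPM after MAARS knockdown, a log2 fold change of 0.36 (SE 0.267, 95% interval -0.22 to 0.95, edgeR adjusted p = 0.291). Timp3 held 21.9, 17.4, 27.6 and 35.1 CPM in controls and 27.3, 31.1, 46.0 and 31.8 CPM after knockdown, a log2 fold change of 0.42 (SE 0.203, 95% interval -0.03 to 0.86, edgeR adjusted p = 0.115). In both genes replicate 5 was the lowest control and replicate 7 the highest, and replicate 9 was the lowest knockdown library and replicate 13 the highest. Without control replicate 7, Timp3 gave 0.61 (edgeR adjusted p = 0.0232). Timp1 (ENSMUSG00000001131, chrX:20870166-20874735, plus strand) lies within Syn1 without sharing exons. Timp3 (ENSMUSG00000020044, chr10:86300372-86349506, plus strand) lies within Syn3 and shares 21.3% of its exonic bases with it on the other strand.

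Fibroblasts and other stromal cells of marrow also express Timp1 and Timp3, so their markers were read beside these genes. The summed level of 9 stromal markers was 693, 509, 829 and 1166 CPM in controls and 791, 1013, 1367 and 846 CPM after MAARS knockdown. The controls had the same order in this sum as in Timp1 and in Timp3, and knockdown replicate 13 was highest and replicate 9 lowest in all 3. The neutrophil marker sum had that control order too, and its knockdown order (replicates 9, 11, 15 and 13 from lowest to highest) was that of Timp1 and Timp3, whereas in the stromal sum replicates 11 and 15 changed places. Of the 9 markers, 8 passed the filter and 0 were called by edgeR, with 1 at an unadjusted p under 0.05. DESeq2 and limma-voom called 0, with 2 and 1 at an unadjusted p under 0.05, and edgeR with no filter called Dcn lower and Col1a1 and Pdgfrb higher. Lum held 0 to 2 counts per library, while Col1a1, a collagen gene, held 4193 to 12641. With the marker sum as a covariate, the log2 fold change of Timp1 was -0.01 (edgeR adjusted p = 0.94) and that of Timp3 was 0.13 (edgeR adjusted p = 0.169). With the neutrophil marker sum in its place they were 0.70 (edgeR adjusted p = 0.000833) and 0.68 (edgeR adjusted p = 0.000117). The values thus depended on the sum entered, and the part of stromal cells or neutrophils in the Timp1 and Timp3 levels was not tested. The stromal covariate gave -0.63 for Mmp14 (edgeR adjusted p = 0.00251) and left Mmp8, Mmp12, Mmp13, Timp2 and Adam8 past the threshold. In the plot of levels against marker sums, Timp1 and Timp3 climb with the stromal sum over the controls, knockdown replicates 11 and 15 stand in the opposite order, and Mmp8 does not climb with the neutrophil sum.

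**Figure D3:**
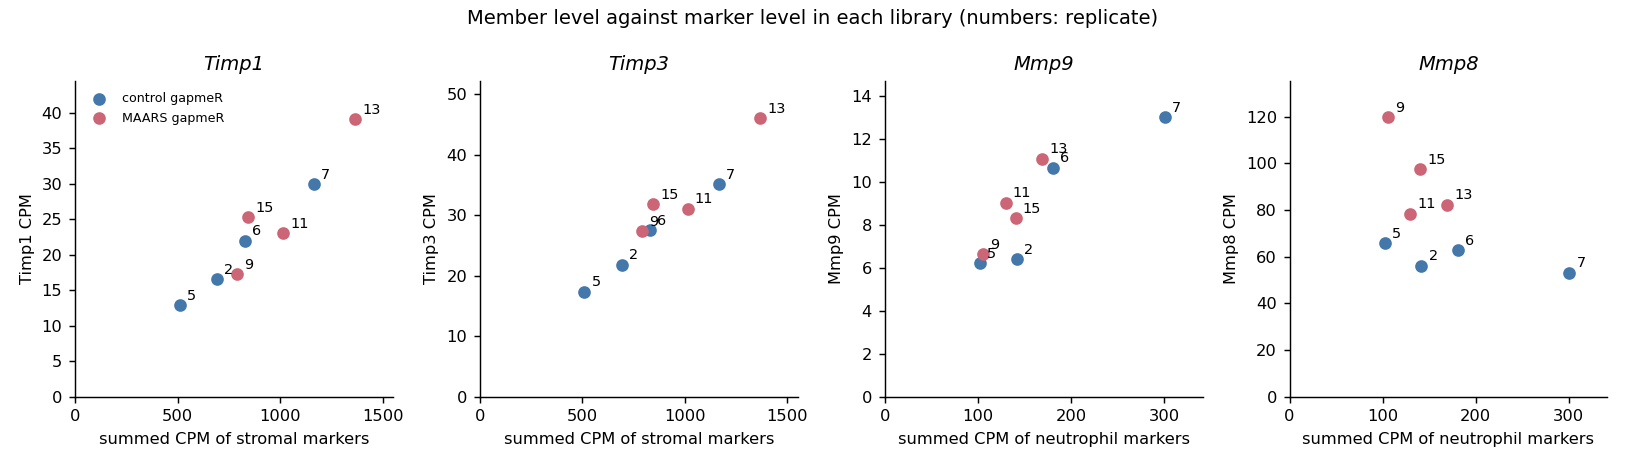
Level of Timp1 and Timp3 against the summed level of 9 stromal markers and of Mmp9 and Mmp8 against that of 10 neutrophil markers (all axes in CPM from 0), with 1 point per library, coloured by gapmeR and numbered by replicate. Control replicate 7 has the highest neutrophil sum (301 CPM) and knockdown replicate 13 the highest stromal sum (1367 CPM).

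Adam8 encodes a membrane metalloproteinase of leukocytes that sheds surface proteins, and it stood highest in level of the 10 genes. The controls held 1311, 1169, 1331 and 1405 CPM and the MAARS gapmeR libraries 757, 995, 916 and 963 CPM. No knockdown library reached the lowest control. The mean fell from 1304 ± 98.7 to 908 ± 105 CPM (SD, n = 4), with a log2 fold change of -0.52 (SE 0.085, 95% interval -0.71 to -0.34, edgeR adjusted p = 0.000497). Adam8 RNA thus fell by 30.4%. With each library left out in turn the change stayed between -0.58 and -0.45. Adam8 (ENSMUSG00000025473, chr7:139978932-139992562, minus strand) shares 0.992% of its exonic bases with Gm16201 on the other strand.

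**Figure D4:**
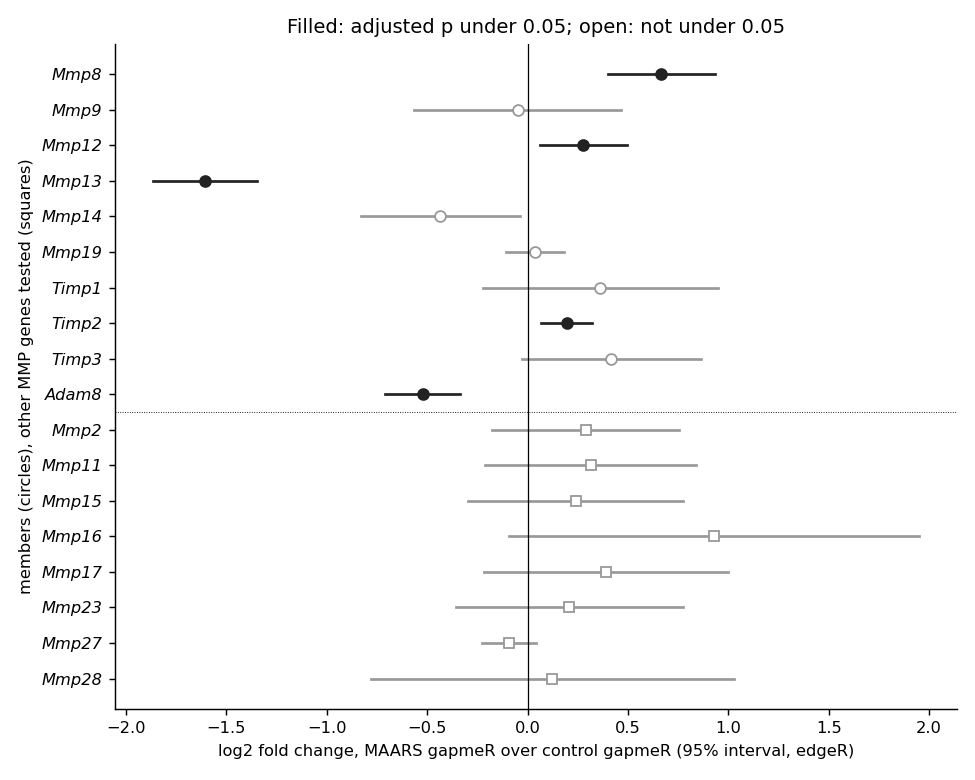
Log2 fold change of MAARS gapmeR over control gapmeR with 95% intervals from edgeR (horizontal axis) for the 10 genes (circles) and the 8 other MMP genes tested (squares), filled at an adjusted p under 0.05. The interval of Mmp13 (-1.86 to -1.34) lies below those of all other genes drawn, and no other MMP square is filled.

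Levels were compared between genes per kilobase of merged exons. In the control libraries, the order was Adam8 at 281 ± 21.3, Timp2 at 139 ± 10.8, Mmp12 at 45.6 ± 6.99, Mmp13 at 28.2 ± 4.08, Mmp8 at 24.5 ± 2.41 and Timp1 at 22.9 ± 8.35 CPM per kb (SD, n = 4). Below these came Mmp14 at 11.2 ± 3.35, Mmp19 at 9.77 ± 0.602, Timp3 at 3.13 ± 0.941 and Mmp9 at 2.56 ± 0.942 CPM per kb. Mmp13, Mmp8 and Timp1 overlapped between libraries, as did Mmp14 with Mmp19 and Timp3 with Mmp9. Over all 8 libraries Adam8 stood above 98.9% of the genes tested, Timp2 above 97.9% and Mmp12 above 92.6%, while Timp3 stood above 41.7% and Mmp9 above 34.2%.

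After MAARS knockdown the order changed at Mmp13. It came to 9.28 ± 1.42 CPM per kb, within the range of Mmp19 at 10.0 ± 0.671 and Mmp14 at 8.27 ± 1.14. Mmp8 at 38.9 ± 7.71 took the place behind Mmp12 at 55.2 ± 5.03, and Timp1 at 29.5 ± 10.4 overlapped Mmp8. Adam8 at 196 ± 22.7 and Timp2 at 159.8 ± 5.31 CPM per kb overlapped, which they did not in the controls. With the longest transcript in place of merged exons, Mmp12 stood at 73.7 and 89.4 and Mmp14 at 20.6 and 15.2 CPM per kb in controls and knockdown, so the distance between genes depends on the length chosen.

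**Figure D5:**
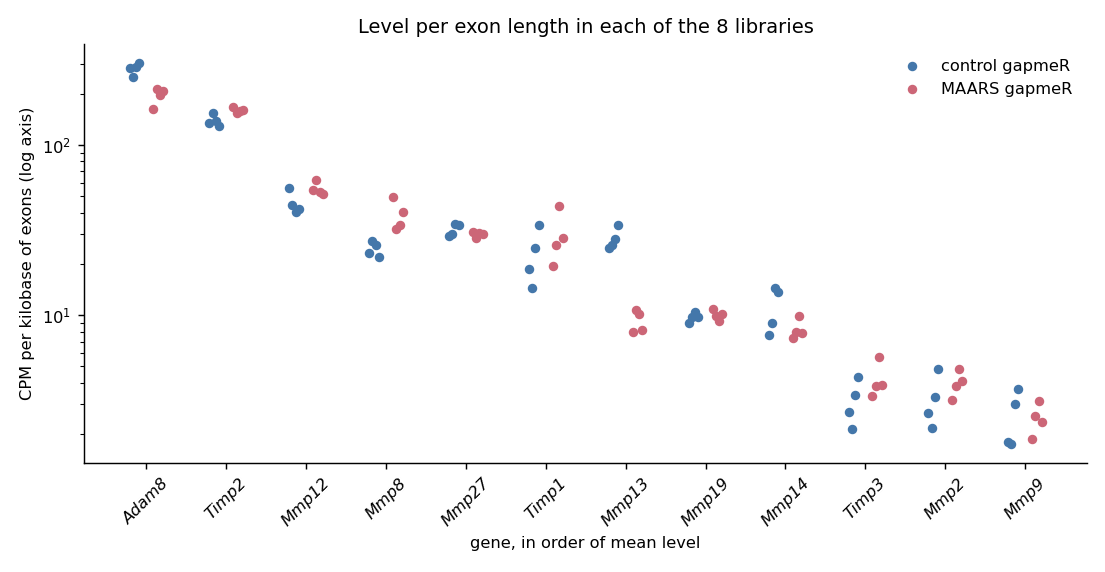
Level per kilobase of merged exons (vertical axis, CPM per kb on a log axis) of the 10 genes with Mmp27 and Mmp2 for reference, in order of mean level, with 1 point per library coloured by gapmeR. Mmp13 drops from 28.2 to 9.28 CPM per kb, and the groups of Adam8 separate at the top of the range.

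The 6 MMP genes were also summed per length in each library and set against the sum of the 3 TIMP genes. The MMP sum was 122 ± 2.72 in controls and 124 ± 5.94 CPM per kb after knockdown (SD, n = 4), with overlapping libraries. Within it, the share from Mmp13 was 23.1% ± 2.95 in controls and 7.49% ± 1.27 after knockdown, that from Mmp8 20.2% ± 2.39 and 31.3% ± 5.22, and that from Mmp12 37.4% ± 5.85 and 44.5% ± 3.64. The TIMP sum was 156 to 171 in controls and 183 to 208 CPM per kb after knockdown, and 84.3% ± 5.47 and 82.8% ± 4.90 of it came from Timp2. The log2 ratio of the MMP sum to the TIMP sum was -0.44 ± 0.0747 in controls and -0.64 ± 0.134 after knockdown, a difference of -0.20. The groups overlapped, with control replicate 5 (-0.535) between knockdown replicates 9 (-0.520) and 11 (-0.541). No test was made of these sums, since their members were chosen with results known.

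Of the other 17 MMP genes and Timp4, 8 passed the filter and 0 were called by edgeR, against 45.4% of all genes tested. At an unadjusted p under 0.05 there were 0, and the median log2 fold change of the 8 was 0.26. Mmp11, Mmp15, Mmp16, Mmp17, Mmp23 and Mmp28 were low, at group means of 0.33 to 2.34 CPM. Their SEs were 0.24 to 0.47, so a change in them could have been missed. Limma-voom called 0, with 1 at an unadjusted p under 0.05. DESeq2 and edgeR with no filter each called 1 gene, Mmp25, which encodes a membrane-anchored MMP of leukocytes and did not pass the filter on low counts. Mmp25 held 7, 6, 9 and 10 counts in controls and 1, 0, 3 and 1 after knockdown, and its log2 fold change was -2.88 in DESeq2 (adjusted p = 0.00381) and -2.77 in edgeR with no filter (adjusted p = 0.00301). Mmp2, the gelatinase activated by MMP14, gave 0.29 (SE 0.213, edgeR adjusted p = 0.288). Timp4 held 0 to 2 counts per library.

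Among 19 genes of other ADAM proteases and their regulators, 15 were tested, 6 were higher and 4 lower, against 21.3% and 24.0% of all genes tested, with a median log2 fold change of 0.14. Higher were Adam22, a family member without protease activity (1.41, edgeR adjusted p = 1.02e-05), Tspan5, a tetraspanin that escorts ADAM10 to the surface (1.18, edgeR adjusted p = 1.19e-05), and Rhbdf1, an inactive rhomboid that escorts ADAM17 (0.95, edgeR adjusted p = 0.000223). Its paralog Rhbdf2, which serves ADAM17 in myeloid cells, was lower (-0.52, edgeR adjusted p = 8.77e-05), with a mean of 72.6 ± 6.62 against 50.7 ± 1.94 CPM (SD, n = 4). Adam33 (-0.90, edgeR adjusted p = 4.02e-05) and the ADAM10 partner Tspan33 (-0.42, edgeR adjusted p = 0.0135) were lower too. By level, Adam22, Tspan5 and Rhbdf1 were low in both groups. Their means were 2.98, 4.18 and 2.98 CPM in controls and 7.97, 9.51 and 5.75 CPM after knockdown, so Rhbdf1 stayed far below Rhbdf2. Of the main sheddases, Adam10 was higher (0.20, edgeR adjusted p = 0.0132), and Adam17 gave 0.10 (edgeR adjusted p = 0.292).

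Of 21 surface proteins cleaved by ADAM8, ADAM10 or ADAM17, 18 were tested, 5 were higher and 7 lower, against 21.3% and 24.0% of all genes tested, with a median log2 fold change of -0.06. The higher genes with the smallest p were Cd163, the haemoglobin scavenger receptor (2.13, edgeR adjusted p = 6.49e-06), Csf1r, the M-CSF receptor (0.45, edgeR adjusted p = 0.000784), and Il6ra, the interleukin-6 receptor (0.30, edgeR adjusted p = 0.0341). Lower were Icam1, an adhesion molecule (-1.02, edgeR adjusted p = 1.64e-05), Tnf (-1.17, edgeR adjusted p = 1.9e-05) and Cxcl16, a membrane chemokine (-0.94, edgeR adjusted p = 0.000212). Csf1r, Icam1 and Cxcl16 share 15.1%, 11.7% and 18.3% of their exonic bases with a gene on the other strand. These are transcripts of the substrates and carry no measure of cleavage.

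Among 22 genes that activate MMPs, dock them at the cell surface or inhibit them otherwise, 18 were tested, 6 were higher and 2 lower, against 45.4% of all genes tested called in either direction, with a median log2 fold change of 0.15. Among the higher were Cd44, which holds MMP9 at the surface (0.37, edgeR adjusted p = 0.00181), and Lrp1, an endocytic receptor that clears MMPs and TIMPs (0.29, edgeR adjusted p = 0.00456). Lower were Pcsk7, a proprotein convertase (-0.36, edgeR adjusted p = 0.000461, with 10.1% of its exonic bases shared with genes on the other strand), and Plau, the urokinase that makes plasmin from plasminogen (-0.40, edgeR adjusted p = 0.0424). Plau overlapped between the groups, at 171 to 246 CPM in controls and 125 to 193 CPM after knockdown. DESeq2 called 6 genes of this list higher and 1 lower, and with libraries left out edgeR called 6 to 8. Furin, the convertase that activates MMP14, gave 0.14 (edgeR adjusted p = 0.0225). Of 19 ADAMTS genes, which encode secreted proteases of the matrix, 8 were tested and 3 were higher (Adamts10 at 0.54, Adamts2 at 0.68 and Adamts1 at 0.42, edgeR adjusted p = 0.000363, 0.0278 and 0.0188), with a median of 0.48, against 21.3% higher among all genes tested. Adamts2 overlapped between the groups, at 6.14 to 11.5 CPM in controls and 10.3 to 19.4 CPM after knockdown. The count of ADAMTS calls fell to 1 without control replicate 6 and to 1 without knockdown replicate 13.

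Osteoclasts express MMPs too, and 3 of 7 osteoclast markers were tested. The 7 markers summed to 385 to 396 CPM in controls and 488 to 519 CPM after MAARS knockdown. The median log2 fold change of the 3 tested was -0.13. Atp6v0d2 was higher (0.46) and Acp5 lower (-0.75), where 45.4% of all genes tested were called. Calcr, the calcitonin receptor, held 0 counts in every library. The part of osteoclasts in the levels of the MMP genes was not tested. Of 4 endothelial markers, 3 were tested and Kdr was lower (-1.54), against 24.0% lower among all genes tested. Of 5 dendritic cell markers 2 were tested, with Itgax higher, against 21.3% higher among all genes tested. DESeq2 and edgeR with no filter each called 2 of the 5, Itgax higher and Xcr1 lower. Of 4 mast cell and basophil markers 1 was tested. It was Kit (-0.70, edgeR adjusted p = 0.281), and Fcer1a held 0 counts in every library.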

How the data were processed

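RNA-Seq of BMDMs was used, with 4 control gapmeR and 4 MAARS gapmeR libraries grouped by their labels. The authors trimmed reads with Trimmomatic 0.36, aligned them to GRCm38 with STAR 2.5.2b and Ensembl transcripts, and obtained gene totals with featureCounts of Subread 1.5.2 (versions from the submitters' processing notes). The deposited values are raw counts. Strand setting and treatment of multiply mapped reads are not given in the sources used here, which matters for overlapping genes.

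The filterByExpr rule (the CPM equivalent of 10 counts in at least 4 libraries, and 15 counts in total) left 13051 genes. These were scaled with TMM factors (0.955 to 1.03) and compared with edgeR 4.0.16 in R 4.3.3 by the quasi-likelihood test. The p-values were adjusted after Benjamini and Hochberg over these genes, at a threshold of 0.05. The SE was the absolute log2 fold change over the square root of F. CPM values used the same factors. GENCODE M21 on GRCm38, which held 99.3% of the genes, gave symbols, positions and exon lengths, and RefSeq gave promoters. The precision rests on 19287279 to 24541205 counts per library and a biological coefficient of variation of 8.51%. Replicates of a group differed by a chi-square of 4.02 to 14.1 per gene, above sampling noise, so each library was counted as 1 sample.

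The members and the gene lists were chosen with earlier results of these data known. The text names all 10 members, MAARS, up to 3 called genes per direction of each list by smallest p, and the 3 genes most alike to Mmp12, Timp2 and Adam8; Adam10, Adam17, Furin, Mmp2, Mmp25, Mmp27 and single markers were named after their values were seen. Some genes that this rule names are not reported here. Alternatives were RLE and upper-quartile factors, DESeq2 1.42.0, limma-voom (limma 3.58.1), fits without a filter or with a mean count of 10 as filter, thinning to the smallest library, a log2 fold change of at least 1.5, transcript length, and each library left out in turn. Covariate fits with marker sums were added after the data were seen. The scripts were tested on simulated counts.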

Additional observations from a re-analysis of the deposited data

How the results depend on the processing

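Mmp13 (-1.74 to -1.50), Mmp8 (0.53 to 0.79), Adam8 (-0.60 to -0.45) and Timp2 (0.16 to 0.26) kept their direction and an adjusted p under 0.05 in 17 of 17 alternatives, and Mmp19 passed in 0 of 17. With libraries left out in turn, log2 fold changes ranged from 0.21 to 0.39 for Mmp12 (past the threshold in 3 of 8), from -0.57 to -0.30 for Mmp14 (3 of 8), from 0.24 to 0.61 for Timp3 (1 of 8), from -0.20 to 0.18 for Mmp9, from -0.00637 to 0.0732 for Mmp19 and from 0.10 to 0.61 for Timp1. With no filter, Mmp14 (-0.44, edgeR adjusted p = 0.00382) and Timp3 (0.41, edgeR adjusted p = 0.0171) passed. Mmp9 turned to 0.0122 with upper-quartile factors and 0.0015 with limma-voom. The cause was not tested. Of the fits added after the data were seen, the stromal marker covariate gave -0.34 for Mmp9, -0.63 for Mmp14 and -0.0119 for Timp1, and the neutrophil marker covariate gave 0.25 for Mmp9, 0.24 for Mmp12, 0.70 for Timp1 and 0.68 for Timp3. The other MMP genes had 1 call with DESeq2, 1 with no filter, 2 with the neutrophil covariate and 0 to 2 with libraries left out, and the ADAMTS genes 6 with that covariate and 1 to 4 with libraries left out. With a log2 fold change of at least 1.5 required, 287 genes were called in all, 67 higher and 220 lower, 1 of the 10 members (Mmp13), 2 substrates and 0 of the other ADAM, ADAMTS and activator lists. With libraries left out, 5097 to 5621 genes were called and 4 to 6 of the members. The MMP to TIMP difference stayed between -0.24 and -0.14. No paired analysis was possible because the groups share no replicate numbers. At 0 to 10 counts per library, Timp4 and Mmp25 did not pass the filter at this depth. No group value of the 31 genes named stood apart from its group by Dixon's test.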

Other observations

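The genes whose log2 CPM followed a member most closely over the 8 libraries, among 11919 genes with a mean of at least 1 CPM, are given as a description, since the groups set much of the likeness. Mmp12 was followed by Spc25, a kinetochore subunit (Pearson r 0.983), Pcdhgb6, a protocadherin (0.972), and Shmt2, the mitochondrial serine hydroxymethyltransferase (0.968). Timp2 was followed by Hsd17b11 (0.998), Bcas3 (0.993) and St6galnac6 (0.986), and Adam8 by Rrp12 (0.995), a factor of ribosome export, Tbl3 (0.993), a factor of ribosomal RNA processing, and Prmt5 (0.992), an arginine methyltransferase. The log2 fold changes of these genes were 0.39, 0.56 and 0.38 for the first 3, 0.24, 0.36 and 0.52 for the next and -0.51, -0.36 and -0.46 for the last.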
